A study of Solanum lycopersicum with 18 samples.

Results

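This account follows the rin mutant of tomato over one interval of fruit age, from 35 to 45 DAP. Its members are the genes that reached 1 RPKM in 3 or more of the 6 rin libraries, which were 18727 of the 35802 identifiers in the table. RPKM is a read count scaled to the length of the gene and to the read total of the library. RNA was sequenced from sliced, frozen fruits of 3 genotypes, with 3 libraries for each of the 6 groups of genotype and age. The rin fruits came from the strain LA3754, which carries the rin allele in the Ailsa Craig background, and were taken at 35 DAP and at 45 DAP. Wild-type Ailsa Craig fruits of both ages are used here for comparison. So are fruits of TF18, a transgenic line in the same cultivar in which FUL1 and FUL2 are suppressed, and only this one line was sampled. All plants grew under one glasshouse regime, and the labels name no treatment of any group. The titles use "Green" for 35 DAP and "Pink" for 45 DAP in every genotype, and the colour of the rin fruits is not recorded.

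RIN is a MADS-box transcription factor that acts early in tomato ripening and binds many of the genes that make ethylene, pigments and wall-loosening enzymes. In plants with the rin allele the RIN gene is rearranged and joined to its neighbour, and the fruits reach full size but stay firm and do not redden as wild-type fruits do. The interval in rin therefore shows how the fruit's RNA changes with age when normal RIN is missing. The files pair no identifier with a gene name, and 0 identifiers matched the RefSeq table at hand, so genes are given by identifier and without a role. For the same reason no level can be given for RIN by name, no marker of fruit tissue was checked, and any identifier described below may be that of RIN or of the gene it is joined to. In such bulk samples, fewer cells of a type and less RNA per cell cannot be told apart.

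The 6 rin libraries held 11593940 to 16795691 reads. At that depth 1 RPKM stood for 12.1 to 17.5 reads in a member of median coding length. Across members, on log2(RPKM + 1) values, libraries of one age correlated at 0.923 to 0.960 and libraries of different ages at 0.805 to 0.859. Replicate 3 of 45 DAP stood somewhat apart from the other two of its age, at 0.923 and 0.933 where those correlated at 0.960. The read-weighted mean coding length of the rin libraries was 1594, 1428 and 1247 bases in replicates 1, 2 and 3 of 45 DAP. At 35 DAP it was 1479, 1484 and 1442 bases, so the spread at 45 DAP was far wider. Whether the 3 libraries per group stem from different plants is not recorded, so the spread that the p-values rest on may be technical.

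Most members were present at both ages. In all 6 libraries 15796 members had at least 1 RPKM, and 1190 had it in exactly 3. The third-highest library of these 1190 had a median of 1.45 RPKM, against 0.742 RPKM for the 901 genes just outside, which passed in 2 libraries. Only at 45 DAP, with all 3 libraries passing and none at 35 DAP, were 269 members found, and 518 were found only at 35 DAP. Genes found at one age only had to differ to enter in this way.

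Between 35 and 45 DAP, 1476 members rose and 1714 fell in rin. A gene rose or fell here if limma gave an adjusted p under 0.05 and a log2 fold change of at least 1 in size. These counts are 7.88% and 9.15% of the members. They include 211 of the 269 members found only at 45 DAP and 399 of the 518 found only at 35 DAP. Members of these 2 kinds had to differ between the ages to enter. Over all 20658 genes tested the shares were 7.49% for rises and 8.84% for falls, close to those of the members, which make up most of the genes tested. The median log2 fold change of all members was 0.07. The median rise was 1.66 on the log2 scale, with quartiles of 1.24 and 2.34, and the median fall was -1.70, with quartiles of -2.41 and -1.30. Changes under 4-fold on this scale made up 65.1% of the rises and 63.0% of the falls. At least 8-fold changes were found for 188 rises and 245 falls. With a pseudocount of 5 RPKM in place of 1 RPKM, 979 members rose and 933 fell.

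Among members of low level falls outnumbered rises, and between 30 and 1000 RPKM rises outnumbered falls. Here members were classed by their mean over all 18 libraries. Of the 2592 members between 2 and 5 RPKM, 8.33% rose and 14.4% fell. Of the 4040 between 30 and 100 RPKM, 8.12% rose and 6.09% fell, and of the 1304 between 100 and 300 RPKM, 10.6% rose and 7.13% fell. Among the 108 members over 1000 RPKM both shares were high, at 14.8% and 17.6%. Under quantile normalization 11.0% of the members between 2 and 5 RPKM rose and 9.57% fell, and between 30 and 100 RPKM 5.84% rose and 7.55% fell, so this order depends on the scaling.

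**Figure D1:**
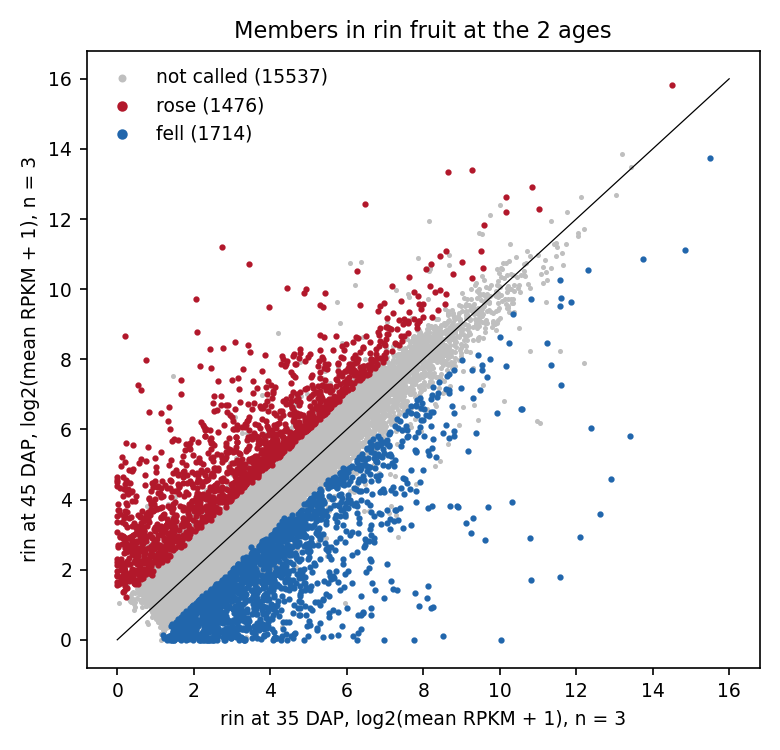
Mean level of each member in rin fruit at 35 DAP (x axis) and 45 DAP (y axis), both as log2(mean RPKM + 1) over 3 libraries. Red points are the 1476 rises, blue points the 1714 falls and grey points the other members, and the line marks equal levels.

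Most genes that rose were already present at 35 DAP, and most that fell were still detected at 45 DAP. The median member that rose went from 7.63 RPKM to 31.6 RPKM, and the median member that fell went from 13.5 RPKM to 2.27 RPKM. Reads were absent from all 3 libraries of 35 DAP for 15 of the rises, and from all 3 of 45 DAP for 37 of the falls. A mean of at least 1000 RPKM at the higher age was reached by 26 rises and by 28 falls. The libraries of the 2 ages did not overlap in 1424 of the 1476 rises and in 1677 of the 1714 falls. Among all members, 4977 lay higher and 3455 lower at 45 DAP without overlap, which is 26.6% and 18.4%, where all genes tested gave 25.1% and 19.2%. Members found at one age only, described above, are separated by the way they entered and are counted here. Separated libraries were thus more common among members than rises and falls as defined here.

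Solyc05g012020 showed the largest rise of the members that passed the naming rule. It was at 5.37, 2.29 and 9.26 RPKM in rin replicates 1, 2 and 3 of 35 DAP and at 2295, 2811 and 1899 RPKM in those of 45 DAP. All 3 libraries of 45 DAP lay far above those of 35 DAP, and the gene rose by 8.59 on the log2 scale (SE 0.56, with an adjusted p of 1.2e-06 in limma).

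In the wild type the same gene went from 11.6, 13.4 and 32.2 RPKM to 886, 576 and 730 RPKM. Every rin library of 45 DAP lay above every wild-type library of that age, and every rin library of 35 DAP lay below every wild-type library of that age. The rise was larger in rin by 3.28 on the log2 scale (SE 0.79, limma adjusted p = 0.0066 for the difference). Whether this identifier belongs to RIN itself, in which case its reads in rin would come from the rearranged gene, was not checked. In TF18 the gene was at 5.11 to 28.7 RPKM at 35 DAP and at 26.7 to 64.4 RPKM at 45 DAP, with overlapping groups.

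Solyc08g080640 had the next largest rise. Its values were 27.8, 0.584 and 1.20 RPKM at 35 DAP, where replicate 1 stood above the other two, and 1246, 2670 and 1138 RPKM at 45 DAP. It rose by 8.39 on the log2 scale (SE 0.81, with an adjusted p of 1.1e-05 in limma). The wild type reached a like level, from 5.88 to 17.7 RPKM at 35 DAP to 659 to 2013 RPKM at 45 DAP. The difference between the genotypes was 1.46 on the log2 scale (SE 1.15, limma adjusted p = 0.35). It was 2.77 with an adjusted p of 0.011 in limma without rin replicate 1 of 35 DAP. In TF18 the gene also rose, from between 0.816 and 1.53 RPKM to between 32.9 and 71.9 RPKM (log2 fold change 4.63, SE 0.81, limma adjusted p = 0.011).

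Solyc05g007040 had the largest fall. It was at 453, 611 and 2089 RPKM in rin replicates 1, 2 and 3 of 35 DAP, or 12130 reads in all, and had 0 reads in each library of 45 DAP. The fit gave -9.70 on the log2 scale (SE 1.49, with an adjusted p of 0.00029 in limma). With 3 reads over the group as the most that a count of 0 allows, the level at 45 DAP was at least 3502-fold lower. That bound covers counting error only, and rests on replicate 3, without which it was 1702-fold. The wild type had 21 reads at 45 DAP, at 1.58 to 7.98 RPKM, after 634 to 2726 RPKM at 35 DAP. The difference in change between the genotypes was -1.53 on the log2 scale (SE 2.10, with an adjusted p of 0.61 in limma). Fitted without TF18, this difference had an SE of 0.90 (limma adjusted p = 0.223). Fitted to the rin libraries alone, the fall had an SE of 0.535 in place of 1.49.

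Solyc03g005580 fell from 2123, 578 and 6528 RPKM to 0.638, 4.48 and 2.18 RPKM in the 3 rin replicates, which is -9.36 on the log2 scale (SE 1.88, with an adjusted p of 0.0020 in limma). The libraries of 35 DAP differed more than 10-fold among themselves, yet each lay far above those of 45 DAP. In the wild type it fell from 963 to 5389 RPKM to between 2.84 and 13.9 RPKM, and the difference in change between the genotypes was -0.91 (SE 2.67, limma adjusted p = 0.82). These errors pool the variance of all 6 groups, and 1 TF18 library of each age stood far above the other two, at 840 and 516 RPKM. Fitted without TF18, the difference was again -0.91, with an SE of 1.25 (limma adjusted p = 0.615). Fitted to the rin libraries alone, the fall had an SE of 0.88 in place of 1.88. With either error of the difference, a moderate difference in either direction could have been missed.

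**Figure D2:**
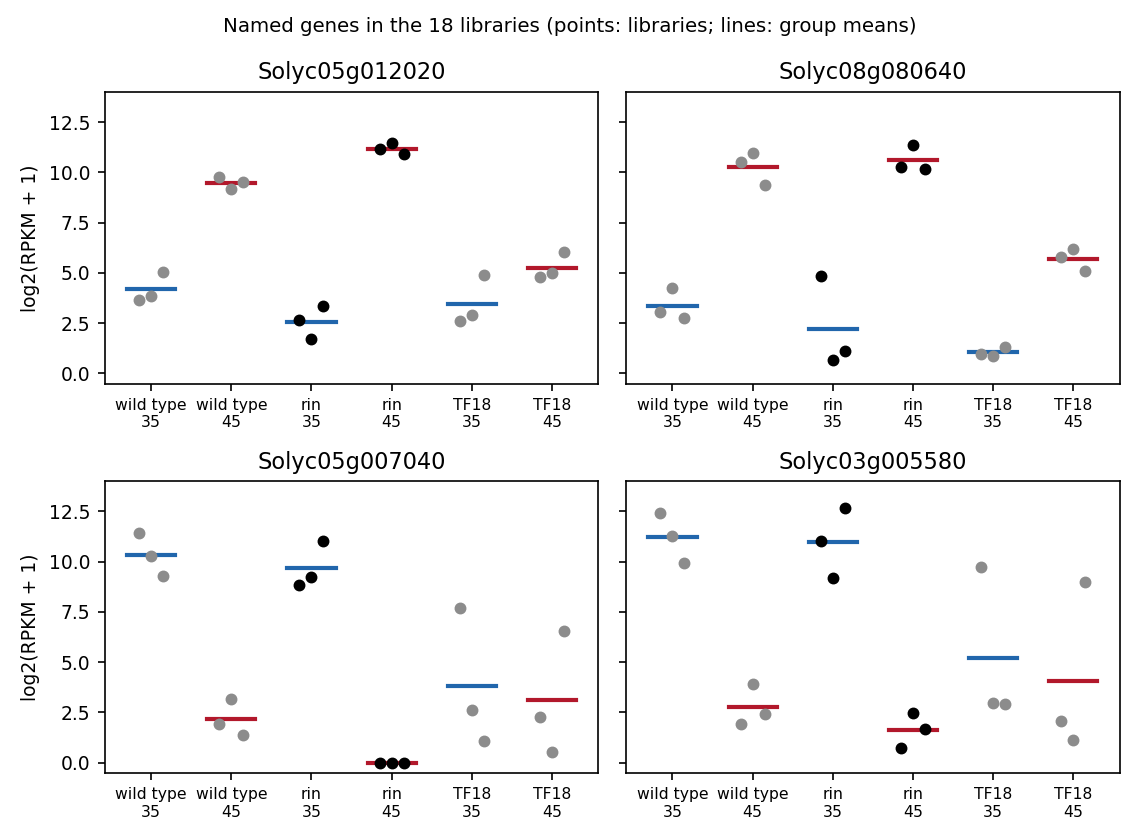
Level of the 4 named genes in all 18 libraries as log2(RPKM + 1), with rin libraries in black, other genotypes in grey, and a line at each group mean (blue for 35 DAP, red for 45 DAP). The upper pair rose and the lower pair fell in rin, and in the lower pair 1 TF18 library of each age lies far above the other two.

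The 12 largest rises and the 12 largest falls by the same rule can be described together. The rises ran from 5.86 to 8.59 on the log2 scale and reached means of 139 to 5545 RPKM at 45 DAP. In the wild type 11 of these 12 rose too, where 7.54% of all genes tested did, and in TF18 2 did, where 0.566% of all did. The difference from the wild type was called for 3, where all genes tested gave 23.2% higher and 2.97% lower. Replicate 2 was the highest rin library of 45 DAP in 9 of the 12. The falls ran from -9.70 to -6.82 and started from means of 214 to 10865 RPKM. All 12 also fell in the wild type, where 34.2% of all genes tested did, and the difference was called for 1. None of the 12 fell in TF18 by limma, where 0.145% of all genes tested did. Of the members 20 fell there, or 0.107%, and 1698 had an unadjusted p under 0.05. Replicate 3 of 35 DAP was the highest rin library for 9 of these 12 falls, and replicate 2 was the lowest for 9. Their highest rin library of 35 DAP was above the lowest by a median of 8.11-fold. In 10 of the 12, replicate 1 of 35 DAP and replicate 3 of 45 DAP were each over 5 times above both other TF18 libraries of their age. The largest falls were thus also genes whose level varied widely between libraries of one group.

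The most abundant RNAs of the fruit were partly exchanged. Of the 100 members with the highest mean at 35 DAP, 53 were still among the 100 highest at 45 DAP, 25 fell and 5 rose. Of the 100 highest at 45 DAP, 23 had risen and 5 had fallen. Over all genes tested the shares were 7.49% for rises and 8.84% for falls, but a list picked at its level of one age by that alone favours falls after 35 DAP and rises before 45 DAP. In the wild type 32 genes were among the 100 highest at both ages. Between the genotypes 85 of the 100 were shared at 35 DAP and 54 at 45 DAP. The member with the highest mean over the rin libraries was at 18682, 25774 and 25689 RPKM at 35 DAP and at 53260, 58030 and 62331 RPKM at 45 DAP (log2 fold change 1.32, limma adjusted p = 0.0077). Its wild-type change was 1.04. The next most abundant went the other way, from 39098, 66406 and 34034 RPKM to 12286, 8850 and 20185 RPKM (log2 fold change -1.78, limma adjusted p = 0.027). In the wild type it was at 27256 to 35787 RPKM at 35 DAP and at 27610 to 171233 RPKM at 45 DAP, and the difference in change was -3.15 (limma adjusted p = 0.0085). Both were picked for their level after the values were seen.

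The 100 most abundant members of each library held 30.6%, 33.1% and 34.6% of the summed RPKM in the rin libraries of 35 DAP and 26.4%, 28.4% and 32.6% in those of 45 DAP. The mean fell by 3.65 percentage points, with overlapping groups and a two-sided exact permutation p of 0.2. For the 10 most abundant the shares were 14.5% to 17.2% and 12.3% to 14.2%, which do not overlap, and the exact permutation p was 0.1, the smallest that 3 against 3 libraries can give. The number of members at 1 RPKM or more went from between 17858 and 18030 to between 17289 and 17538, also with an exact permutation p of 0.1. Over the 5 such values compared, no adjusted p was under 0.25 in these permutation tests.

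The rises held 5.67% to 6.26% of the summed RPKM in the rin libraries of 35 DAP and 19.6% to 24.2% in those of 45 DAP. The falls held 19.8% to 24.6% and then 2.67% to 4.30%. These shares describe genes chosen on the same libraries. The wild-type libraries did not enter that choice except through the common variance. There the rin rises went from between 6.15% and 6.94% to between 19.9% and 26.1%, and the rin falls from 20.7% ± 3.81 to 10.1% ± 5.38 (SD, n = 3). Much of the latter share was 1 gene, the abundant rin fall described above that rose in the wild type. Without it, a setting chosen after seeing the data, the rin falls went from 17.9% ± 3.41 to 2.19% ± 0.240 in the wild type and from 17.4% ± 3.69 to 2.50% ± 0.613 in rin (SD, n = 3). In TF18 the rises held 7.03% to 10.4% at 35 DAP and 8.45% to 10.4% at 45 DAP, and the falls 12.9% to 17.0% and 10.8% to 15.2%, with overlapping ages in both cases.

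**Figure D3:**
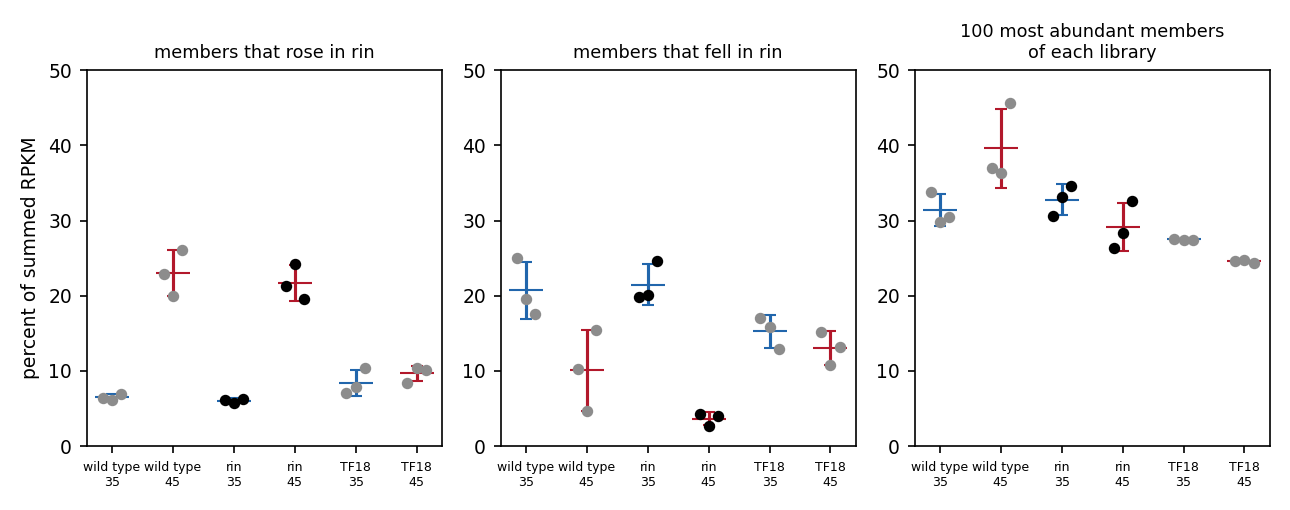
Percent of the summed RPKM of each library held by the members that rose in rin, by those that fell in rin and by the 100 most abundant members of that library, in the 6 groups. Points are libraries (rin in black), horizontal lines group means and bars 1 SD (n = 3), and the rin rises reached 19.6% to 24.2% in rin and 19.9% to 26.1% in the wild type at 45 DAP.

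Each member's change in rin was set beside its change in the wild type, which rests on other libraries. Across the 18727 members, which share library depth and are not independent, the log2 fold changes had a Pearson r of 0.665 and a Spearman rho of 0.643, and with TF18 0.175 and 0.0928. Members called over the interval numbered 1421 higher and 6693 lower in the wild type, where all genes tested gave 7.54% and 34.2%. In TF18 99 were higher and 20 lower, where all genes tested gave 0.566% and 0.145%. The wild type's median change over members was -0.59 on the deposited scale, -0.31 after TMM-type scaling and 0.06 after quantile normalization, while that of rin was 0.07, -0.03 and 0.05. Changes in the wild type are to be read against that shift, and its libraries of 45 DAP were shallower, with 5.98 to 10.9 reads at 1 RPKM for the median member.

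Falls in rin were largely falls of the wild type. Of the 1714, 1562 also fell in the wild type, which is 91.1% where 35.7% of all members fell there. Another 9 rose there, where 7.59% of all members did. With TMM-type scaling 1491 fell, or 87.0% where 28.9% of all members did, and 12 rose. After quantile normalization 1184 fell, or 69.1% where 16.8% of all members did, and 20 rose. On the deposited scale their median log2 fold change was -2.52 in the wild type against -1.70 in rin. With TMM-type scaling the medians were -2.36 and -1.78, and with quantile normalization -1.68 and -1.62. The difference itself was called for 451 of these falls, with 396 of the 1714 smaller in rin and 55 larger. A smaller fall counts as a difference called higher in rin, and all genes tested gave 23.2% higher and 2.97% lower. Both shares of the falls were close to these, so the split is not particular to the falls. With TMM-type scaling 251 of the falls were smaller in rin and 83 larger, and with quantile normalization 91 and 102. The side on which the falls differed thus depends on the scaling.

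Rises in rin were in part rises of the wild type. Of the 1476, 552 also rose in the wild type, which is 37.4% where 7.59% of all members rose there. Another 110 fell there, where 35.7% of all members did. With TMM-type scaling 695 also rose, or 47.1% where 12.95% of all members did, and 80 fell. After quantile normalization 782 rose, or 53.0% where 14.7% of all members did, and 43 fell. Their median log2 fold change was 0.68 in the wild type and 1.66 in rin, and with quantile normalization 1.25 and 1.66. The difference was called for 577 rises that were larger in rin and 85 that were smaller. With TMM-type scaling 426 were larger and 125 smaller, and with quantile normalization 264 and 101, so under these scalings too the rises larger in rin outnumbered the smaller ones. The rises were chosen for a large change in rin, and that choice by itself raises the number that look larger there. Over all members the difference was called higher in rin for 4690 and lower for 530, where all genes tested gave 23.2% and 2.97%. With TMM-type scaling this split was 2683 and 1165, and with quantile normalization 1161 and 1022.

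**Figure D4:**
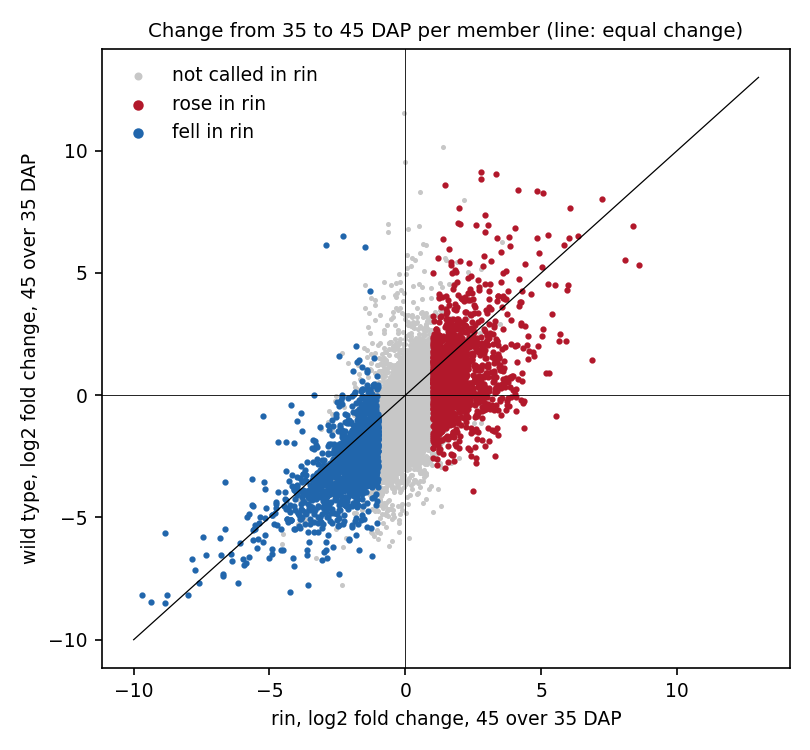
Log2 fold change from 35 to 45 DAP of each member in rin (x axis) and in the wild type (y axis), with rises of rin in red, falls in blue and a line at equal change. Most blue points lie below 0 on the y axis, where 1562 of 1714 fell in the wild type, while the red points spread over both sides, with 552 rises and 110 falls in the wild type.

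The length of the coding sequence, recovered from the steps of the RPKM values, went with the direction of change. It is the shortest length that fitted and was not checked against gene models. Rises had a median coding length of 828 bases, falls 1190 bases and all members 1041 bases. In the class of the shortest members, up to 453 bases, 10.2% rose and 6.92% fell. In the class of the longest, over 1926 bases, 3.63% rose and 9.70% fell. Among the members between 10 and 30 RPKM alone these shares were 10.9% and 7.56% for the shortest and 2.70% and 7.08% for the longest. Of the shortest 10.1% rose and 29.6% fell in the wild type, and of the longest 1.54% and 61.3%. After quantile normalization these shares were 18.6% and 12.7% for the shortest and 5.08% and 28.1% for the longest, so the order of rises and falls among the shortest turned. The read-weighted mean coding length of the wild-type libraries was 1503 to 1557 bases at 35 DAP and 1150 to 1232 bases at 45 DAP, while in TF18 it was 1528 to 1593 bases and 1553.9 to 1619.5 bases.

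The 3 rin libraries of 45 DAP differed in this respect. The longest class had a median log2 difference from the mean of 35 DAP of 0.19 in replicate 1, -0.10 in replicate 2 and -0.55 in replicate 3. The shortest class had 0.18, 0.24 and 0.13. Replicate 1 thus stood at the same level in both classes, and replicate 3 dropped between them. Without replicate 3 the median of the longest class was 0.04 in place of -0.17, and 5.11% of it rose and 8.10% fell, against 9.17% and 6.14% of the shortest. The part of RNA quality in this trend was not tested.

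**Figure D5:**
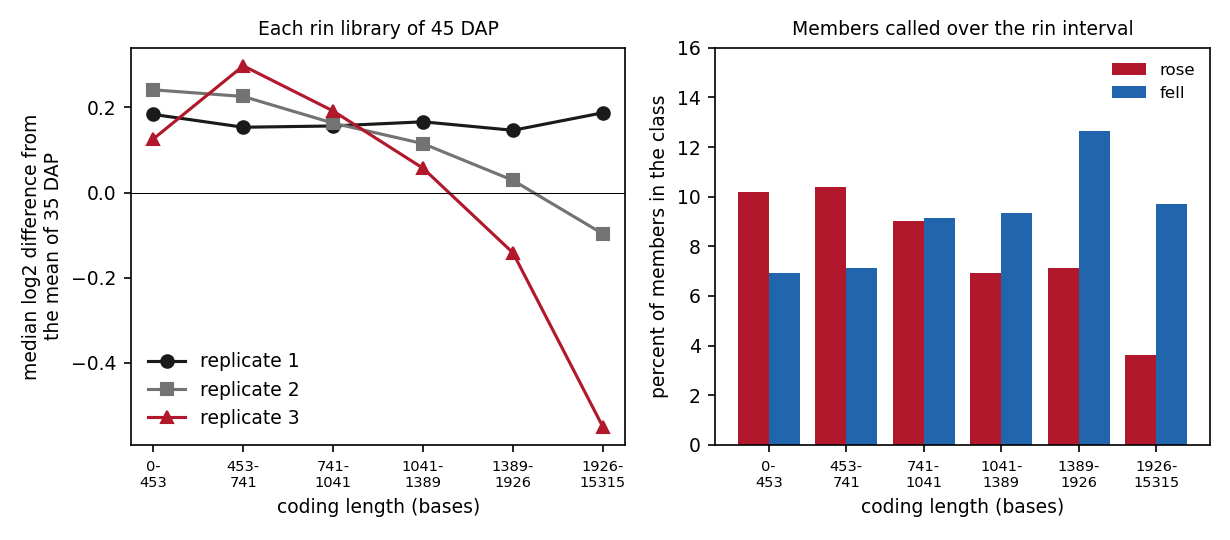
Left, median log2 difference of each rin library of 45 DAP from the mean of 35 DAP, in 6 classes of coding length in bases. Right, percent of the members in each class that rose (red) or fell (blue) over the interval. Replicate 3 falls to -0.55 in the longest class while replicate 1 stays at 0.19.

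A minority of the members that changed lay beside one that changed the same way. Members were put in the order of their identifiers, which number genes along each chromosome, and each was compared with the next member on the chromosome. The next member also rose after 16.1% of the rises, where 7.88% of all members rose. It also fell after 15.1% of the falls, where 9.15% of all members fell. After 7.71% of the changed members the next one changed in the other direction. Most changed members still stood alone, with 1054 rises and 1257 falls between neighbours that did not change the same way. Runs of at least 4 neighbours numbered 8 among the rises, with 33 members, and 12 among the falls, with 58 members. By chromosome, leaving out 142 members whose identifiers carry the number 0, rises made up from 6.02% of the members of chromosome 11 to 9.64% of those of chromosome 8. Falls made up from 8.39% on chromosome 1 to 10.9% on chromosome 2.

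The runs were also read in the wild type, with no test against the other changed members. There 55 of the 58 members of falling runs fell, or 94.8% where 91.1% of all rin falls did. Of the 33 members of rising runs 8 rose there, or 24.2% where 37.4% of all rin rises did. The longest run held 8 neighbours on chromosome 1 whose log2 fold changes reached -2.10 in rin and -2.44 in the wild type. All 8 fell in both genotypes, and their means at 35 DAP were 2.90 to 13.4 RPKM. The next longest run held 7 neighbours on chromosome 2, each with a coding length of 798 bases. Their means ran from 48.6 to 1144 RPKM at 35 DAP and from 0.320 to 224 RPKM at 45 DAP, and their log2 fold changes were -5.84 to -4.18 in rin and -6.32 to -3.09 in the wild type. The wide range at 45 DAP includes a library at 652.9 RPKM for one of them. Equal lengths are found in near-identical copies, among which the authors' counting could have split reads, so the values of single genes in this run are uncertain.

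A rising run of 4 neighbours on chromosome 4 had coding lengths of 177 to 348 bases and was nearly silent at 35 DAP. No rin library of 35 DAP exceeded 0.456 RPKM for any of the 4, and at 45 DAP their libraries lay between 1.78 and 59.7 RPKM. All 4 thus became members only through their 3 libraries of 45 DAP. A higher level at 45 DAP in rin was required for entry, which also bears on their difference from the wild type. At these lengths 1 RPKM stood for fewer reads than in a member of median coding length. The log2 fold changes were 2.75 to 3.74 in rin and -0.60 to -0.14 in the wild type, and the difference was called for all 4. In TF18 they were 2.37 to 2.93 with limma adjusted p of 0.052 to 0.15, which does not pass the threshold. A run of 4 on chromosome 3, with coding lengths of 861 to 864 bases, rose by 2.43 to 3.02 in rin, from at most 9.47 RPKM in a library of 35 DAP to at least 16.1 RPKM in a library of 45 DAP. Its changes in the wild type were -0.35 to 0.22, and the difference was called for 2 of the 4. These runs were picked out after their values were seen. Near-equal lengths in the run on chromosome 3 leave the values of its single genes uncertain too.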

How the data were processed

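RNA-seq of 18 fruit libraries was deposited by the authors as RPKM per gene, in a single table. The submitters' processing notes list CASAVA 1.8.1 and Bowtie2. Which genome build, gene models and counter were used is not given in the sources used here. Titles gave each library its group and replicate number, and the table held 0 further columns of values. Whole reads, coding lengths (taken as multiples of 3 bases) and read totals were solved from the steps of the values. The tolerance was 0.02 reads. For each gene the shortest length that fitted was taken, so some lengths and read numbers may be too small. A solution was found for 28612 genes, which is every gene above 0 in a library. It required each value above 0 to be whole within that tolerance, so the 100.0% found whole is not a check. Read totals of the 18 libraries ran from 5740900 to 17334324. No library repeated another of its rin group, since the chi-square per gene was at least 45.5. Reads carry no molecular identifiers.

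limma 3.58.1 in R 4.3.3 was run on log2(RPKM + 1) with the means of 6 groups over 18 libraries and trended variances. Genes that reached 1 RPKM in 3 or more of the 18 libraries (20658) were tested two-sided with Benjamini-Hochberg adjustment over all of them, and fold changes understate those of low genes. One contrast was the rin interval, another the rin interval minus that of the wild type, and those of the wild type and TF18 were also read. The script was also run on simulated data with normal noise, in which no gene of low level was changed. That run did not cover shifts linked to coding length, and no result here rests on it. Two-sided exact permutation tests of library values used Python 3.11.15 and scipy 1.17.1. Named genes were called genes without overlap and with a mean of at least 10 RPKM at one age, 2 rises and 2 falls by size. Gene lists by name were not used, because 0 identifiers matched the RefSeq table of assembly SLM_r2.1. Alternatives were pseudocounts of 0.1 and 5 RPKM, no filter and one at 5 RPKM, TMM-type scaling (trimming 30% of log ratios and 5% of levels at each end), quantile normalization, only the compared groups, library weights, the replicate block and leaving out each library. The members, lists and rules were chosen with earlier results of these data known.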

Additional observations from a re-analysis of the deposited data

Results flagged for a closer look

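A test of the difference between genotypes put these results forward, since the interval changed them unequally in rin and in the wild type (limma, difference of the changes). Of the members, 4690 changed more upward in rin and 530 more downward, and both numbers depend on the scaling, as given above. Solyc05g012020 rose further in rin by 3.28 on the log2 scale. Whether this identifier is that of RIN, the gene altered in rin, was not checked. A called difference with opposite directions was found for 110 members that rose in rin and fell in the wild type, and for 9 members that fell in rin and rose in the wild type. With TMM-type scaling these were 80 and 12 members, and with quantile normalization 43 and 20. In all, 1476 members rose and 1714 fell in rin on the deposited scale. In the wild type 35.7% of all members fell and 7.59% rose on that scale.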

How the results depend on the processing

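With a pseudocount of 5 RPKM the rin interval gave 979 higher and 933 lower members in place of 1476 and 1714, and the difference from the wild type 2518 higher. TMM-type scaling moved that difference to 2683 higher and 1165 lower, and quantile normalization to 1161 and 1022. The cause was not tested. For the rin interval no other alternative listed above moved either count by over 1.5 times. Leaving out single libraries gave 1148 to 1522 higher and 1469 to 1737 lower members for the rin interval, 3691 to 5296 and 432 to 581 for the difference, and falls of -5.40 to -2.29 percentage points in the share of the 100 most abundant members. The changes of the 4 named genes in rin stayed called in all 15 alternatives each. The uncalled difference of Solyc03g005580 from the wild type turned from -0.91 to 0.29 with library weights. No main rise turned into a fall under any alternative, or the reverse (0 genes).

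Same-numbered rin libraries of the 2 ages had deviations correlated at -0.16, 0.0022 and 0.064. Those with different numbers ran from -0.21 to 0.26. No pairing by number was visible, but 3 libraries per age are too few to decide whether one exists. With the replicate block 1447 members were higher and 1702 lower, and the difference from the wild type gave 4682 and 522. At this depth 1 RPKM stood for 12.1 to 17.5 reads per library in a member of median coding length, and for fewer reads in shorter members.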
